A study of Homo sapiens with 4 samples.

Results

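The collagen chains are the 43 genes, of 23228 in the count tables, whose symbol consists of COL, a type number, A and a chain number. All 43 were followed in ES2 cells, an established human ovarian cancer (OCa) cell line, after treatment with vehicle (labelled Control) or with liquiritigenin (Liq) for 24 h. Liq is a plant flavanone that the study used as an agonist of estrogen receptor beta. The dose was 100 μM according to the methods of the study. RNA-seq was done on 2 samples per group, and both groups were cultured in phenol red-free medium with charcoal-treated serum. Nothing in the labels says that the samples of a group came from separate cultures, so p-values measure only the spread between these samples, which may be technical.

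Collagens are secreted or membrane-bound proteins in which chains wind around each other into a stiff helix. The fibrillar types give connective tissue its tensile strength, collagen IV forms the network of basement membranes, and collagen VI forms beaded microfibrils around cells. In ovarian tumours collagen is a main component of the matrix through which cells attach and migrate, and it is also a target of secreted and membrane-anchored proteases.

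Of the 43 chains, 25 had enough counts to be tested, 14 were removed by the filter on low counts and 4 had no count in any sample. Reads counted on genes numbered 34573053 to 48933893 per sample. Collagen chains took 0.448%, 0.425%, 0.469% and 0.434% of these in vehicle 1, vehicle 2, Liq 1 and Liq 2, with 95% exact (Clopper-Pearson) intervals, covering counting error only, of 0.446% to 0.450%, 0.423% to 0.427%, 0.467% to 0.472% and 0.432% to 0.436%. The groups overlapped in this share. Markers of epithelium and of other cells were looked at in this ovarian cancer line. KRT7, KRT8 and KRT18, keratins of simple epithelia, were tested, while CDH1, the main adhesion cadherin of epithelia, had no count and EPCAM and KRT19 had 1 to 3 counts per sample. PAX8, MUC1 and CLDN4 of the epithelial list were also tested, at 1.32 CPM or less in every sample, and MUC16 had 0 to 1 counts. The fibroblast list has 9 genes, of which 6 were tested. It summed to 116 and 115 CPM in vehicle and 101.04 and 105 CPM in Liq. Most of this came from PDGFRA, at 92.3 and 91.9 CPM in vehicle and 76.6 and 79.5 CPM in Liq. PDGFRB, THY1, FAP, ACTA2 and S100A4 were also tested. The matrix members DCN and LUM had at most 1 count in any sample, and POSTN had 0 to 4. CPM are counts scaled to a common library size after TMM normalization, a correction for library composition. In bulk RNA, fewer cells of a type and less RNA per cell cannot be told apart.

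Liq left the total of collagen RNA within the spread of the samples and shifted its make-up. The α3 chain of collagen VI fell to about 0.56 of its vehicle level, and COL16A1 and COL17A1 fell by log2 changes near 1, while COL4A1, COL4A2, COL5A1, COL18A1 and COL1A1 rose by smaller amounts. A call here needs a 1.5-fold difference in either direction together with a Benjamini-Hochberg adjusted p under 0.05 from edgeR's quasi-likelihood test, adjusted over all 13546 genes tested. By that rule 5 of the 25 tested chains were called, which is 20% against 6.45% of all genes tested. Of these, 4 chains were lower (COL6A3, COL16A1, COL17A1 and COL10A1), or 16% against 2.16% of all genes, and 1 was higher (COL11A2), or 4% against 4.29%. With the same adjusted p and no minimum fold, 12 chains passed, 6 higher and 6 lower, or 48% against 24% of all genes, of which 12.6% were higher and 11.3% lower. The samples of the groups did not overlap for 18 of the 25 chains, 10 higher and 8 lower with Liq, which is 72% against 61.7% of all genes tested (31.5% higher and 30.2% lower). The median absolute log2 fold change was 0.30 for the tested chains and 0.16 for all genes tested, and the median signed log2 fold change was 0.03 and 0.01. The median CPM in vehicle was 32.2 for the tested chains and 29.3 for all genes tested. An exact permutation test of 2 samples against 2 cannot give a p below 0.3333, and the tests therefore use the spread that edgeR estimates from many genes together. Of the 12 chains, 6 kept an adjusted p under 0.05 under each of the other normalizations, filters and tests and with any sample left out, namely COL6A3, COL16A1, COL17A1, COL4A2, COL5A1 and COL18A1.

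**Figure D1:**
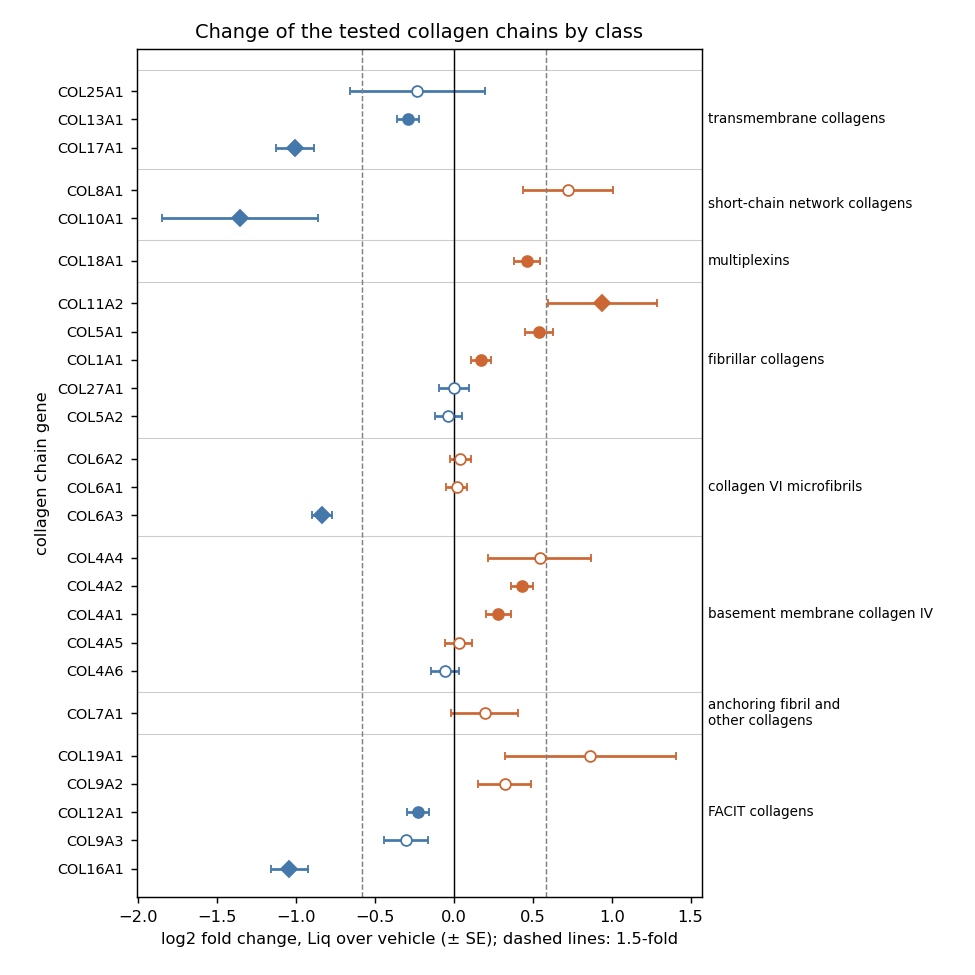
Log2 fold change of the 25 tested collagen chains, Liq over vehicle, grouped by class (points with SE from edgeR, 2 samples per group). Diamonds are chains called at 1.5-fold, filled circles have an adjusted p under 0.05 at a smaller fold and open circles do not pass, and COL6A3, COL16A1, COL17A1 and COL10A1 lie left of the dashed line of the 1.5-fold threshold.

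The stretches before the transcription start of chains that rose and of chains that fell are shown as examples of high and low CG content, chosen after the values were seen. They are RefSeq sequences of build GRCh38.p14, 5′ to 3′ on the strand of the gene, in lower case with every CG dinucleotide in capitals. COL4A1 and COL4A2 lie head to head on chromosome 13, so the 250 bases before each start overlap, and the 126 bases they share are given on the COL4A2 strand (chr13:110307158-110307283, plus strand, 20 CG). The other windows are the 250 bases before the start of COL5A1 (chr9:134641553-134641802, plus strand, 29 CG), COL6A3 (chr2:237414165-237414414, minus strand, 3 CG) and COL17A1 (chr10:104085881-104086130, minus strand, 1 CG).
COL4A1/COL4A2: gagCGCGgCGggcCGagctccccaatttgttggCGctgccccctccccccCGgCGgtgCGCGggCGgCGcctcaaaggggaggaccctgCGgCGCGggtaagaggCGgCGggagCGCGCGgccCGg
COL5A1: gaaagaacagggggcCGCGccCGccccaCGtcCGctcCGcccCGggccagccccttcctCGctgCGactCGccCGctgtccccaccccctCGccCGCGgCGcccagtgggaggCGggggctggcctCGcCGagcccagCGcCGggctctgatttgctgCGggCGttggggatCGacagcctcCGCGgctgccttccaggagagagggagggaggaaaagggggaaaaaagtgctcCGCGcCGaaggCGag
COL6A3: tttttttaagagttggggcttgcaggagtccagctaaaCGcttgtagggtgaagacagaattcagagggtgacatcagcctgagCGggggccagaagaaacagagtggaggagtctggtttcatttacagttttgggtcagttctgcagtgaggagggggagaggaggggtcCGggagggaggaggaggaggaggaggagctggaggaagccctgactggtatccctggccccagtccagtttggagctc
COL17A1: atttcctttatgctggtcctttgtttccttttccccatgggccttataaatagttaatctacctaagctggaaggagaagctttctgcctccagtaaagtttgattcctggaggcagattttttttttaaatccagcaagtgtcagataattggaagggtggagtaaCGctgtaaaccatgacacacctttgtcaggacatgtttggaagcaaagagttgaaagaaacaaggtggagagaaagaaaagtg

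Windows of 250 bases were found for 31 of the 43 chains, 20 of them tested. Each lies before 1 RefSeq start per gene, and these starts were not matched to the GRCh37 gene positions given below. Among the chains with an adjusted p under 0.05, those that rose held 38 (COL4A1), 40 (COL4A2), 37 (COL18A1), 29 (COL5A1) and 8 (COL11A2) CG dinucleotides. Those that fell held 21 (COL12A1), 16 (COL13A1), 16 (COL16A1), 3 (COL6A3), 1 (COL17A1) and 1 (COL10A1). No window was found for COL1A1, which also rose. The 4 windows with the most CG among these chains thus belong to chains that rose and the 3 with the fewest to chains that fell, with COL11A2 the exception among the chains that rose. Both CG count and GC content overlapped between these chains, with GC at 57.2% (COL11A2) to 88.4% (COL18A1) in the chains that rose and 32.4% (COL10A1) to 73.2% (COL16A1) in those that fell. The median CG count was 16 over the 20 tested chains and 21 over the 9268 tested genes with a window. Across the 20 chains the Spearman correlation of CG count with log2 fold change was 0.38, against 0.01 across the 9268 genes. The windows of COL4A1 and COL4A2 share 126 bases with 20 CG, which count for both. Those of COL4A5 and COL4A6 also overlap, so the 20 windows are not separate observations. This is a description across genes that share the same 4 libraries, not a test, and the comparison was chosen after values were seen.

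**Figure D2:**
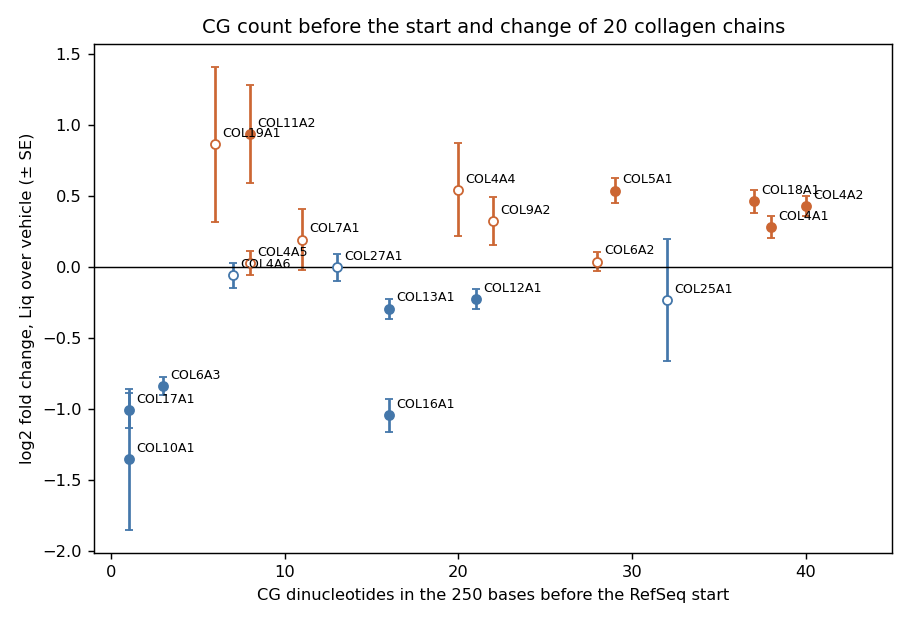
CG dinucleotides in the 250 bases before the RefSeq start (x axis) against the log2 fold change with SE (y axis) for the 20 tested chains with a window. Filled points have an adjusted p under 0.05, and the falling chains COL6A3, COL17A1 and COL10A1 sit at 3, 1 and 1 CG while the rising COL4A1, COL4A2 and COL18A1 sit at 37 to 40.

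Short motifs were searched on both strands of these windows. The letters GGGCGG occurred in 18 of the 31 collagen windows and in 42.31% of all 27305 windows of the same length. CCAAT occurred in 9 of 31 and 33.04% of all, and TATAAA in 5 of 31 and 11.13% of all. The COL18A1 window held GGGCGG at 9 positions, and the COL17A1 window held TATAAA, seen in the sequence above, but no GGGCGG. TGACNNNGC was found in 2 of 31 (11.03% of all) and CAGACA in 1 of 31 (13.6% of all). The 2 TGACNNNGC windows, of COL4A5 and COL4A6, overlap and hold the same site. TGACTCA (4.16% of all) and the palindromic estrogen response element (0.04% of all) were found in none of the 31. A κB sequence, searched as fixed letters only (0.18% of all), was also found in none of the 31. Other forms of the κB consensus were not searched. Each motif was counted on its own and overlaps between motifs were kept. Where windows of head-to-head genes overlap, a shared site was counted for both genes, as for CCAAT in COL4A1 and COL4A2. A match is not a binding site, and the absence of these letters from a window of this size says nothing about a factor.

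In vehicle-treated cells the collagen RNA came mostly from collagen VI and from COL1A1. COL1A1, COL6A1, COL6A2 and COL6A3 together took 80.2% and 79.3% of the collagen counts in vehicle and 79.4% and 77.5% in Liq. Levels between genes are compared per kb of merged exons of the GENCODE annotation on GRCh37. On that scale the order in vehicle was COL6A2 (196 ± 15.4 CPM per kb, SD, n = 2), COL1A1 (134 ± 6.42), COL6A1 (111 ± 4.06), COL6A3 (33.1 ± 1.17), COL13A1 (14.2 ± 0.291), COL12A1 (11.5 ± 0.135), COL4A2 (8.80 ± 0.374), COL18A1 (6.58 ± 0.624), COL5A2 (5.995 ± 0.112) and COL4A1 (5.34 ± 0.161). Neighbours in this list differed by more than the sum of their SDs except COL18A1 and COL5A2. The length of the canonical transcript, tried after seeing the data, kept the first 5 places. It put COL4A2 above COL12A1 and COL4A1 above COL18A1. COL4A5 then took place 10 and COL5A2 place 11, so membership of the 10 highest depends on the length used. The remaining tested chains ranged down to 0.0153 CPM per kb for COL19A1.

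**Figure D3:**
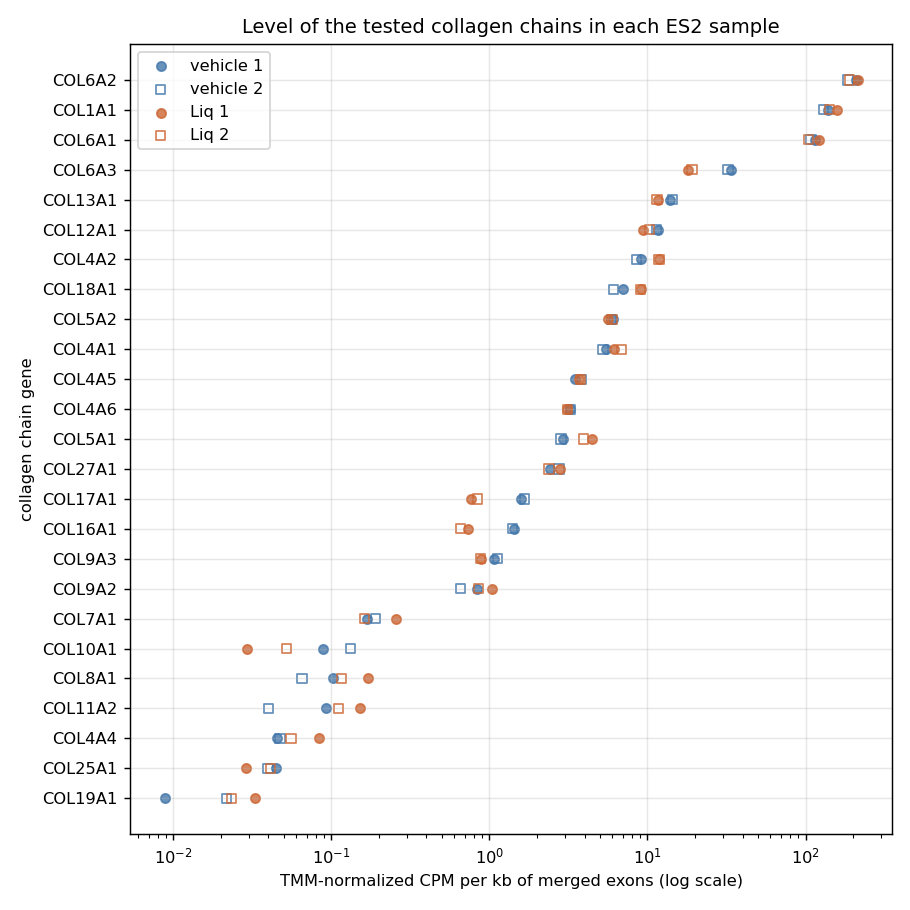
Level of each of the 25 tested chains in each sample, in CPM per kb of merged exons on a log axis (blue, vehicle; orange, Liq; circles, replicate 1; squares, replicate 2). COL6A2, COL1A1 and COL6A1 lie at the top, and the Liq points of COL6A3, COL16A1, COL17A1 and COL10A1 lie left of the vehicle points.

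Within collagen VI the α3 chain fell, and the α1 and α2 chains with which it assembles did not pass the test. COL6A3 (chr2:238232646-238322971 in GRCh37), the largest chain of the microfibril, stood at 731 and 695 CPM in vehicle and at 386 and 412 CPM in Liq. Both Liq samples were far below both vehicle samples. COL6A3 was 1.79-fold lower (log2 fold change -0.84 ± 0.064, SE; adjusted p = 2.44e-10), and the log2 value ranged from -0.88 to -0.74 over the alternatives. COL6A1, the α1 chain, stood at 631 and 599 CPM in vehicle and 669 and 575 CPM in Liq. COL6A2, the α2 chain, stood at 1105 and 988 CPM in vehicle and 1141 and 1011 CPM in Liq. Both overlapped between the groups and did not pass the test, with log2 fold changes of 0.02 ± 0.069 (adjusted p = 0.889) and 0.04 ± 0.067 (adjusted p = 0.710), and the sign of each turned when vehicle 2 (-0.02 and -0.04) or Liq 1 (-0.10 and -0.05) was left out. COL6A1 and COL6A2 lie on the same strand of chromosome 21, 93061 bases apart, and COL6A3 lies on chromosome 2.

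The balance of the collagen VI chains moved accordingly. The ratio of COL6A3 to COL6A1 per kb was 0.298 and 0.299 in vehicle and 0.149 and 0.184 in Liq. The ratio of COL6A1 to COL6A2 was 0.550 and 0.584 in vehicle and 0.565 and 0.549 in Liq, with the groups overlapping. With canonical transcript lengths the COL6A3 to COL6A1 ratio was 0.462 and 0.463 in vehicle and 0.231 and 0.286 in Liq. Collagen VI took 53.3% and 52.5% of summed collagen CPM in vehicle and 48.1% and 47.2% in Liq. The other chains that can take the place of α3 were near or at the floor, with 0 to 4 counts for COL6A5 and 0 to 1 for COL6A6. COL6A4 is listed in the tables only through 2 pseudogene entries, which are not members.

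**Figure D4:**
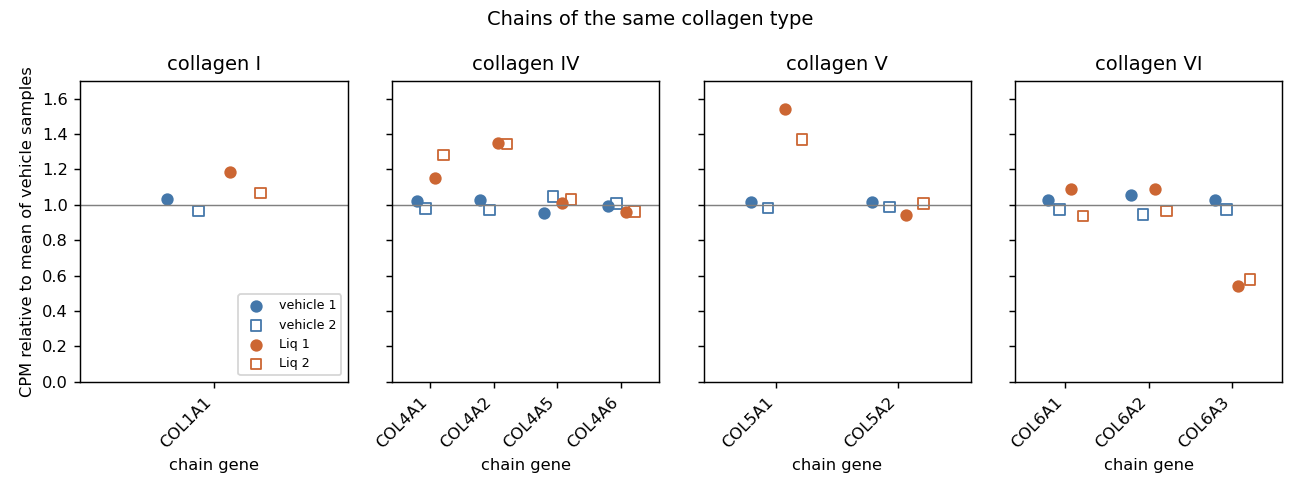
CPM of chains of collagens I, IV, V and VI in each sample, divided by the mean of the vehicle samples for that chain (y axis, from 0; blue, vehicle; orange, Liq; circles, replicate 1; squares, replicate 2). COL6A3 in Liq lies far below 1 beside COL6A1 and COL6A2 near 1, while COL5A1 in Liq lies above COL5A2, and COL4A1 and COL4A2 in Liq lie above their vehicle points.

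The fibrillar collagens rose where they passed the test. Of 11 fibrillar chains 5 were tested, and 3 had an adjusted p under 0.05, all higher. Of these 3, only COL5A1 kept it under every alternative. Over all genes tested 12.6% were higher and 11.3% lower by this adjusted p, for comparison with this class and those below. COL5A1 (chr9:137533649-137736689), a chain of the collagen V that nucleates collagen I fibrils, stood at 32.8 and 31.7 CPM in vehicle and 49.6 and 44.2 CPM in Liq. Both Liq samples were above both vehicle samples. COL5A1 rose by a log2 change of 0.54 ± 0.089 (adjusted p = 6.22e-05), just under the 1.5-fold threshold, and it passed that threshold at 0.62 when Liq 2 was left out. COL5A2, which assembles with COL5A1, stood at 44.5 and 43.3 CPM in vehicle and 41.3 and 44.3 CPM in Liq, an overlap between groups, with a log2 fold change of -0.04 ± 0.084 (adjusted p = 0.801) that turned to 0.01 without Liq 1. The ratio of COL5A1 to COL5A2 per kb was 0.483 and 0.480 in vehicle and 0.788 and 0.654 in Liq.

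COL1A1 (chr17:48261462-48278993), the α1 chain of the most abundant collagen of the body, stood at 1245 and 1163 CPM in vehicle and 1428 and 1284 CPM in Liq. Both Liq samples were higher, by a narrow margin, with a log2 fold change of 0.17 ± 0.062 (adjusted p = 0.0457). It did not pass with DESeq2 size factors (adjusted p = 0.0519), with the DESeq2 Wald test (0.113), or without vehicle 1 (0.0679), vehicle 2 (0.374) or Liq 1 (0.378). COL1A2 (chr7:94024207-94060539), the α2 chain that normally joins α1 in collagen I, had only 3, 3, 3 and 7 counts and was not tested. Per kb, the summed vehicle counts of 94710 for COL1A1 and 6 for COL1A2 correspond to a ratio of 18948 (95% interval of counting error 8705 to 51634), and those in Liq, 115224 and 10, to 13832 (7521 to 28844). The intervals overlap. With canonical transcript lengths these ratios were 13538 and 9882. COL3A1, the other main fibril chain of soft tissue, had 1 count in all.

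COL11A2, a minor chain of cartilage fibrils, was the single chain called higher, on few counts. It had 28 and 11 counts in vehicle and 40 and 41 in Liq, or 0.681 and 0.294 CPM against 1.12 and 0.817 CPM. The Liq samples were higher than both vehicle samples, which differed from each other by more than Liq 2 differed from vehicle 1. The log2 fold change was 0.94 ± 0.35 (adjusted p = 0.0492), and it was 0.48 (adjusted p = 0.500) without vehicle 2 and 0.72 (0.191) without Liq 1. It did not pass under upper-quartile scaling (0.0541), under loess offsets along the expression level (0.155) or by DESeq2 (0.232). COL27A1, a fibrillar chain of developing cartilage, overlapped between groups, with 34.002 and 38.7 CPM in vehicle and 39.3 and 33.4 CPM in Liq (adjusted p = 0.995). Fibrillar chains took 29.3% and 29.4% of summed collagen CPM in vehicle and 34.2% and 33.2% in Liq.

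Among the basement membrane chains, the COL4A1 and COL4A2 pair rose and the COL4A5 and COL4A6 pair did not pass the test. COL4A2 (chr13:110958159-111165556) stood at 175 and 164 CPM in vehicle and 229 and 228 CPM in Liq. This was a rise of 0.43 ± 0.070 on the log2 scale (adjusted p = 5.06e-05). COL4A1 (chr13:110801310-110959504), which supplies the partner chain of the widespread collagen IV network, stood at 80.0 and 76.7 CPM in vehicle and 90.1 and 100.3 CPM in Liq. The Liq samples of both genes lay above all vehicle samples. The log2 fold change of COL4A1 was 0.28 ± 0.079 (adjusted p = 0.00992), and it did not pass without vehicle 1 (0.0940), vehicle 2 (0.195) or Liq 2 (0.0550). The ratio of COL4A1 to COL4A2 per kb was 0.602 and 0.613 in vehicle and 0.517 and 0.579 in Liq. By their RefSeq starts these genes are transcribed away from each other from the stretch printed above. In the GRCh37 annotation, which also gives the distances below, they overlap at these ends (gap of -1346 bases).

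COL4A5 and COL4A6, chains of a network found in kidney, smooth muscle and other basement membranes, are likewise head to head on chromosome X with 340 bases between them. COL4A5 stood at 41.2 and 45.2 CPM in vehicle and 43.7 and 44.6 CPM in Liq (log2 fold change 0.03 ± 0.085, adjusted p = 0.832). COL4A6 stood at 29.9 and 30.4 CPM in vehicle and 28.9 and 29.0 CPM in Liq (-0.06 ± 0.089, adjusted p = 0.689). The values of COL4A5 overlapped between groups and those of COL4A6 were separated by a small gap. The third head-to-head pair, COL4A3 and COL4A4 on chromosome 2 with 170 bases between them, was scarce. COL4A4 had 22, 21, 35 and 33 counts (0.55 ± 0.33, adjusted p = 0.235), and COL4A3 had 1 to 6 and was not tested. Collagen IV took 7.05% and 7.30% of summed collagen CPM in vehicle and 8.61% and 9.50% in Liq, with the groups apart.

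COL18A1 (chr21:46825080-46933634), a basement membrane collagen that releases the fragment endostatin, stood at 59.4 and 51.9 CPM in vehicle and 77.3 and 76.5 CPM in Liq. Both Liq samples were higher than both vehicle samples. COL18A1 rose by a log2 change of 0.47 ± 0.082 (adjusted p = 1.49e-04). Of its merged exon bases, 18.5% are shared with SLC19A1, a folate carrier gene on the opposite strand, and the sources used here do not state whether counting used strand. SLC19A1 itself had a log2 fold change of 0.04 (adjusted p = 0.773). The other chain of its class, COL15A1, had 0 to 2 counts.

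The FACIT collagens, which coat fibrils or link them to other matrix, had 5 tested chains of 10, and the 2 that passed were lower. COL16A1 (chr1:32117864-32169920), found at cell surfaces and in fibrillar networks, stood at 13.2 and 13.0 CPM in vehicle and 6.75 and 6.06 CPM in Liq. The groups were far apart relative to the spread within them. COL16A1 was 2.06-fold lower (log2 fold change -1.04 ± 0.12, adjusted p = 1.84e-07), and the log2 value ranged from -1.13 to -0.96 over the alternatives. COL12A1 (chr6:75794042-75915983), which decorates collagen I fibrils, stood at 219 and 216 CPM in vehicle and 177 and 195 CPM in Liq. The Liq samples were lower without overlap. The log2 fold change was -0.23 ± 0.071 (adjusted p = 0.0207), and it did not pass under loess offsets (0.114) or without vehicle 1 (0.234), vehicle 2 (0.155) or Liq 1 (0.117).

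The collagen IX chains went in different directions without passing the test. COL9A3 had 5.16 and 5.42 CPM in vehicle and 4.30 and 4.26 CPM in Liq (log2 fold change -0.30 ± 0.14, adjusted p = 0.118), and 3.20% of its merged exon bases are shared with TCFL5 on the opposite strand. COL9A2 had 3.50 and 2.78 CPM in vehicle and 4.36 and 3.59 CPM in Liq (0.32 ± 0.17, adjusted p = 0.169). Both genes were without overlap between the groups. COL19A1 had 4, 9, 13 and 13 counts, too few to place a change (0.87 ± 0.54, adjusted p = 0.261).

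The membrane-spanning collagens were lower where they passed. COL17A1 (chr10:105791044-105845638), a component of the hemidesmosomes that anchor epithelial cells to the basement membrane, stood at 11.1 and 11.7 CPM in vehicle and 5.37 and 5.88 CPM in Liq. Each Liq sample was below each vehicle sample by a wide margin. COL17A1 was 2.01-fold lower (log2 fold change -1.01 ± 0.12, adjusted p = 5.78e-07), and the log2 value ranged from -1.10 to -0.95 over the alternatives. COL13A1 (chr10:71561636-71724031), a collagen of cell adhesion sites, stood at 161 and 165 CPM in vehicle and 134 and 132 CPM in Liq. The groups did not overlap, and the log2 fold change was -0.29 ± 0.071 (adjusted p = 0.00355), and it did not pass without vehicle 1 (0.0605) or vehicle 2 (0.114). COL25A1, a neuronal membrane collagen, overlapped between the groups with 9 to 18 counts.

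COL10A1 and COL8A1, short-chain network collagens, were scarce. COL10A1, a marker of hypertrophic cartilage, had 14 and 19 counts in vehicle and 4 and 10 in Liq. These are 0.341 and 0.508 CPM against 0.112 and 0.199 CPM, without overlap. The log2 fold change was -1.35 ± 0.49 (adjusted p = 0.0471). The call was lost with any sample left out: without vehicle 1 (adjusted p = 0.0997), vehicle 2 (0.394), Liq 1 (0.193) or Liq 2 (0.0526). It was also lost under upper-quartile scaling (0.0563) and without a filter (0.0674). COL8A1, found around vessels and in the cornea, had 40 and 23 counts in vehicle and 57 and 55 in Liq, with a log2 fold change of 0.72 ± 0.28 (adjusted p = 0.0663). COL7A1, the chain of anchoring fibrils in skin, overlapped between groups with 1.87 and 2.11 CPM in vehicle and 2.84 and 1.81 CPM in Liq (0.19 ± 0.21, adjusted p = 0.549).

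The undetected and barely detected chains were spread over the classes. COL2A1, COL9A1, COL22A1 and COL23A1 had no count, which allows up to 3 counts per sample, or 0.0598 to 0.0844 CPM at the depth of these libraries. This limit covers counting error only. The 14 chains removed by the filter were COL1A2, COL3A1, COL4A3, COL5A3, COL6A5, COL6A6, COL8A2, COL11A1, COL14A1, COL15A1, COL20A1, COL21A1, COL24A1 and COL28A1. Their highest count in any sample was 13, and the lowest count of a tested chain in any sample was 4.

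Genes that make, bind and cut collagen were followed as 7 lists with 67 genes, of which 52 were tested. By adjusted p 14 were higher and 8 lower (background 12.6% and 11.3%), and at 1.5-fold 1 was higher and 2 were lower (background 4.29% and 2.16%). Their median log2 fold change was 0.12, against 0.01 for all genes. The counts per list below use the same adjusted p, with the same shares of 12.6% and 11.3% over all genes tested. Of these 22 genes, 10 kept an adjusted p under 0.05 under every alternative, and they were ADAMTS2, HSPA5, LOX, MMP1, MMP14, MRC2, P3H2, PCOLCE2, PDIA3 and PLOD2.

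**Figure D5:**
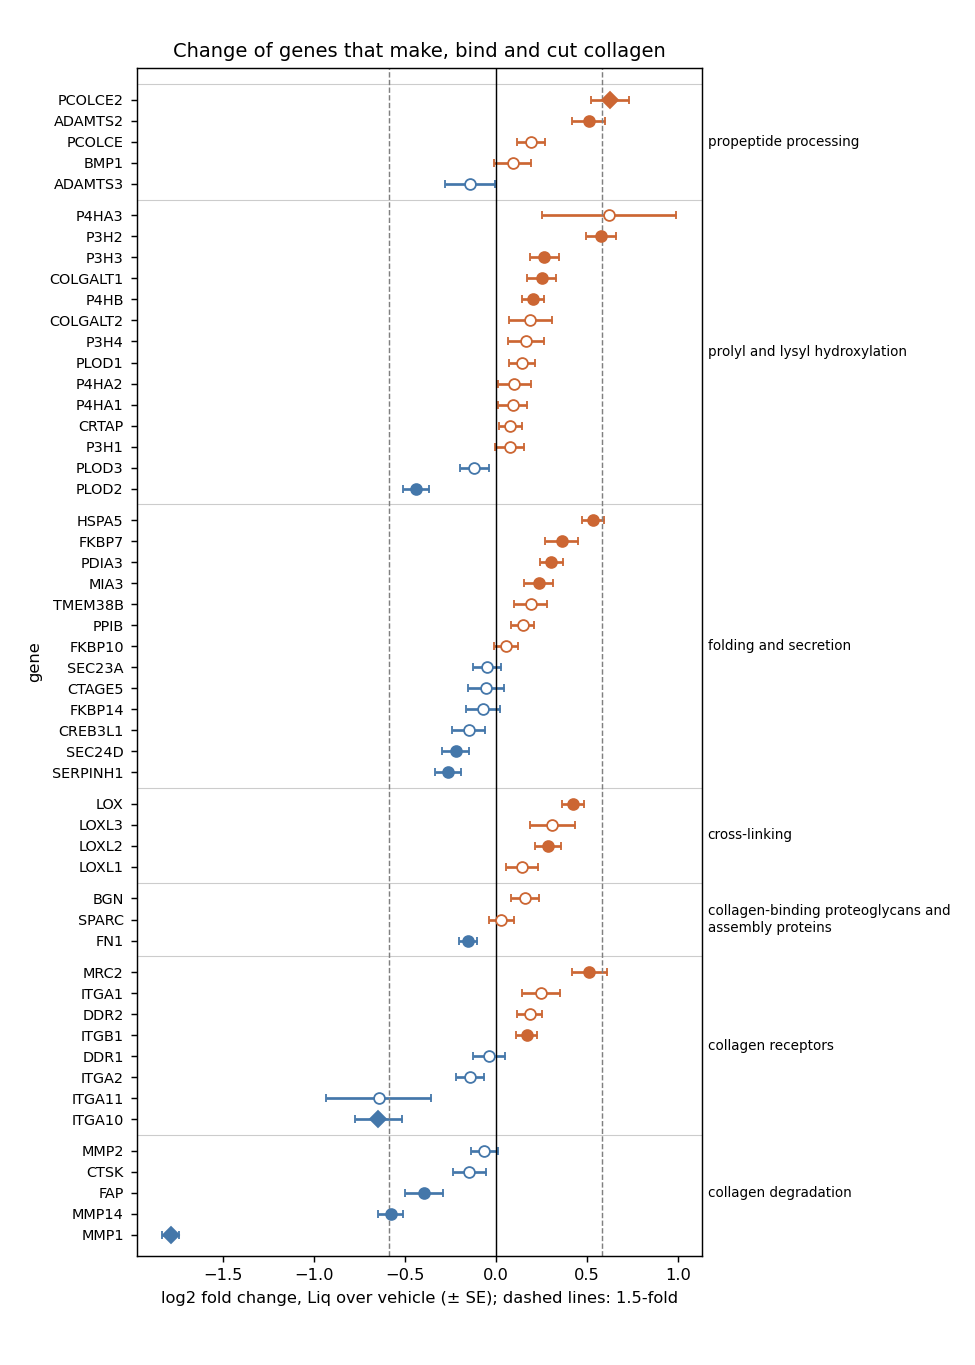
Log2 fold change of the 52 tested genes that make, bind and cut collagen, Liq over vehicle, grouped by role (points with SE from edgeR, 2 samples per group). Diamonds are called at 1.5-fold, filled circles have an adjusted p under 0.05 at a smaller fold and open circles do not pass, and MMP1 stands far to the left of all other genes shown.

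Enzymes that modify the chains inside the cell had 4 of 14 genes higher and 1 lower. PLOD2, the lysyl hydroxylase of the collagen telopeptides, fell from 693 and 733 CPM to 487 and 566 CPM (log2 fold change -0.44 ± 0.069, adjusted p = 3.68e-05). P3H2, listed as LEPREL1, a prolyl 3-hydroxylase acting on collagen IV, rose from 39.0 and 36.996 CPM to 57.2 and 56.2 CPM (0.58 ± 0.083, adjusted p = 1.01e-05). The groups did not overlap for either gene. In the folding and secretion list, 4 of 13 genes were higher and 2 lower. HSPA5, the chaperone BiP of the endoplasmic reticulum, rose from 639 and 618 CPM to 896 and 924 CPM (0.53 ± 0.061, adjusted p = 2.57e-07), and PDIA3, a disulfide isomerase, rose by a log2 change of 0.31 ± 0.063 (adjusted p = 8.18e-04). These are general secretory proteins with many clients besides collagen.

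Enzymes of propeptide processing and cross-linking were higher where they passed. In propeptide processing 2 of the 5 tested genes were higher. PCOLCE2, an enhancer of C-propeptide removal, rose from 11.5 and 10.8 CPM to 16.5 and 18.0 CPM (0.63 ± 0.10, adjusted p = 7.86e-05). ADAMTS2, the N-propeptidase, rose from 34.1 and 34.4 CPM to 51.9 and 45.7 CPM (0.51 ± 0.088, adjusted p = 1.18e-04). Both genes were without overlap, and only PCOLCE2 passed the 1.5-fold threshold, from which it slipped to 0.58 without vehicle 2, 0.56 without Liq 2 and 0.57 under loess offsets. Of the 4 tested cross-linking enzymes 2 were higher, LOX at 582 and 574 CPM in vehicle against 773 and 779 CPM in Liq (0.42 ± 0.061, adjusted p = 9.86e-06), and LOXL2 by a log2 change of 0.29 ± 0.069 (adjusted p = 0.00332), which did not pass without vehicle 2 (0.137).

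Of the 8 tested receptors 2 were higher and 1 lower. ITGA10, a collagen-binding integrin subunit, fell from 10.4 and 14.1 CPM to 7.56 and 8.05 CPM (-0.64 ± 0.13, adjusted p = 5.89e-04), and without vehicle 2 the value was -0.41 (adjusted p = 0.0722). MRC2, the receptor that takes up collagen fragments, rose from 23.7 and 21.7 CPM to 33.998 and 31.0 CPM (0.51 ± 0.094, adjusted p = 2.35e-04). Neither gene overlapped between the groups. Among the collagen-binding matrix proteins 3 of 9 were tested and 1 passed, FN1, the fibronectin on which collagen fibrils are laid down. It stood at 7902 and 7552 CPM in vehicle and 7021 and 6886 CPM in Liq (-0.15 ± 0.049, adjusted p = 0.0237). It did not pass under upper-quartile scaling (0.0693), loess offsets (0.696) or DESeq2 (0.0765), or without vehicle 1 (0.197), Liq 1 (0.0573) or Liq 2 (0.125).

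The degrading enzymes were lower where they passed, 3 of the 5 tested. MMP1, the interstitial collagenase that cuts fibrillar collagen, fell from 20718 and 20920 CPM to 5976 and 6106 CPM (-1.79 ± 0.046, adjusted p = 2.64e-20), and was called lower in every alternative. MMP14, the membrane-anchored collagenase, fell from 429 and 402 CPM to 286 and 271 CPM (-0.58 ± 0.067, adjusted p = 3.76e-07), just under the 1.5-fold threshold, which it passed without vehicle 2 (-0.62) or Liq 1 (-0.62). FAP, a surface protease that trims cleaved collagen and is also on the fibroblast marker list, fell by 0.39 ± 0.10 on the log2 scale (adjusted p = 0.00726), and did not pass without vehicle 1 (0.0713). The collagenases MMP8 and MMP13 had 0 to 4 counts and were not tested.

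Markers of other cells were set beside these values. Of the fibroblast list, PDGFRB and ACTA2 were called higher. By edgeR adjusted p at a smaller fold, THY1 was higher (log2 fold change 0.56, adjusted p = 0.0205). PDGFRA (-0.24, adjusted p = 0.0223) and FAP (-0.39, adjusted p = 0.00726) were lower. The summed CPM, mostly from PDGFRA, was lower in both Liq samples. The epithelial list of 10, with 6 tested, summed to 497 and 455 CPM in vehicle and 576 and 530 CPM in Liq. Most of this came from KRT7, at 266 and 238 CPM in vehicle and 378 and 337 CPM in Liq. By edgeR adjusted p at a smaller fold, KRT7 was higher (log2 fold change 0.51, adjusted p = 1.08e-05). KRT18 was lower (-0.24, adjusted p = 0.0132). PAX8, a transcription factor of Müllerian epithelium, had 49, 46, 12 and 29 counts and was called lower. KRT8, MUC1 and CLDN4 did not pass the test. Leukocyte markers (6, of which 1 was tested) summed to 74.4 and 67.9 CPM in vehicle and 77.7 and 66.5 CPM in Liq, nearly all from CD68, with CD3E at 0 and PTPRC at 0 to 1 counts. Endothelial markers (5, of which 2 were tested) summed to 55.9 and 53.3 CPM in vehicle and 49.6 and 46.1 CPM in Liq, mostly from CDH5. KDR, a receptor for vascular growth factor, was called lower. It stood at 2.43 and 2.35 CPM in vehicle and 1.35 and 1.41 CPM in Liq (log2 fold change -0.79 ± 0.20, adjusted p = 0.00603). CDH5 did not pass the test (-0.16, adjusted p = 0.167). PECAM1 (10, 5, 2 and 2 counts), VWF (7, 2, 1 and 1) and TEK (6, 4, 2 and 3) were too scarce to be tested. No change is read from their counts. The part of all these markers in the collagen results was not tested.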

How the data were processed

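Whole-number counts per gene, 1 table per sample, were deposited by the authors without normalization. Reads from TruSeq libraries had been aligned to hg19 (GRCh37) with TopHat (TopHat2 2.0.8b in the submitters' processing notes, with bcl2fastq 2.17.1.14) and counted with HTSeq, which leaves out reads that align to several places or overlap several genes. The tally lines for these cases held 35.6% to 36.2% and 0.544% to 0.557% of all that was tallied, and the 5 tally lines were left out. Whether a read with several alignments was tallied more than once is not stated. The release of the gene models and the strand setting are not given in the sources used here.

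Genes kept by filterByExpr (minimum count 10, minimum total 15), 13546 in all, were TMM-normalized and tested with edgeR 4.0.16 in R 4.3.3 (glmQLFit, glmQLFTest, no replicate block). P-values were Benjamini-Hochberg adjusted over all genes tested. The SE is the log2 fold change divided by the square root of F. The fits were tested on simulated data with 2-fold changes and the same spread for all genes. Scarce genes were not changed there, so the simulation does not cover calls on low counts or smaller changes. Gene lengths and positions come from GENCODE v44 lifted to GRCh37, and all 43 chains matched. Chi-square per degree of freedom was 5.56 and 9.63 within groups and 49.8 to 61.0 between them, so no samples were merged. Deviations of same-numbered samples correlated at 0.05, so the numbers were not taken to pair samples. Alternatives were DESeq2 1.42.0, other scalings and filters, loess offsets (span 0.3), a replicate block, other thresholds and each sample left out. Chains were named when their adjusted p was under 0.05 or their level was among the 10 highest per kb in vehicle, and pathway genes when called or among the 2 with the smallest p of a list. Other genes were named after their values were seen. The chains and the gene lists were chosen with earlier results of these data known.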

Additional observations from a re-analysis of the deposited data

How the results depend on the processing

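COL6A3, COL16A1 and COL17A1 were called lower in every alternative fit at the 1.5-fold threshold, and these fits called 3 or 4 chains lower. At 2-fold 3 were called lower, without COL6A3, and with no minimum fold 6. Of 163 alternative fits with an adjusted p of the 15 chains named in full, 146 kept direction and side of the call, 11 lost the call, 1 gained it and 5 turned in sign. The sign turned for COL6A1 (-0.02 without vehicle 2, -0.10 without Liq 1), COL6A2 (-0.039 and -0.051) and COL5A2 (0.011 without Liq 1), none of which passed the test. With a sample left out they ranged from -0.10 to 0.12, from -0.051 to 0.124 and from -0.088 to 0.011. The count of chains called higher, 1 at first, was 0 under upper-quartile scaling, loess offsets, DESeq2 and a 2-fold threshold, 2 without a filter and with an unadjusted p, 6 with no minimum fold, and 0 to 3 with a sample left out. With the replicate block it was 2, and 4 chains were called lower as before. COL8A1 was the added chain. The count of pathway genes called higher, 1 at first, was 2 under upper-quartile scaling and loess offsets, 0 at 2-fold, 14 with no minimum fold and 0 to 2 with a sample left out. PCOLCE2, the gene called at first, was not among the 2 under loess offsets, which were HSPA5 and P3H2. The count called lower, 2 at first, was 3 under loess offsets and with an unadjusted p, 1 at 2-fold and 8 with no minimum fold. The change of MMP14 crossed 1.5-fold without vehicle 2 or Liq 1, and that of ITGA10 was under 1.5-fold without vehicle 2. By adjusted p alone, 6 chains were higher and 6 lower, against 3 and 3 without vehicle 2 and 5 and 3 without vehicle 1, and 4 and 5 with DESeq2.

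Over all genes, loess offsets called 354 higher and 394 lower, against 581 and 293 as reported, and DESeq2 called 341 and 226. Calls over all genes ranged from 659 to 979 with a sample left out. The median log2 fold change of all genes was at most 0.03 under any scaling. COL10A1 could not be fitted with at least 10 counts in every sample and has no adjusted p from DESeq2. The ratios between chains move with the length used. With canonical transcripts in place of merged exons, the COL4A1 to COL4A2 ratio of summed counts was 0.455 in vehicle and 0.415 in Liq in place of 0.607 and 0.553, and COL5A1 to COL5A2 was 0.594 and 0.873 in place of 0.482 and 0.708. COL11A2 and COL10A1, the only named chains that lost their calls in these 163 fits, had under 50 counts in every sample, and the cause was not tested.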
